A study of Mus musculus with 12 samples.

Results

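Phospholipase A2 enzymes cut the fatty acid at the middle position of the glycerol backbone of a phospholipid, releasing a free fatty acid and a lysophospholipid. Of 10 genes looked for, 9 were measured here. They were the secreted enzymes Pla2g1b, Pla2g5, Pla2g10 and Pla2g12a, and Pla2g12b, a family member whose protein is inactive. The rest were the cytosolic Pla2g4a, the calcium-independent Pla2g6, the circulating Pla2g7 and the lysosomal Pla2g15. Prdx6, whose product has both peroxidase and phospholipase A2 activity, was not analysed here, because no probe set carried its name alone. The genes were chosen by family, with earlier results of these data known. Each was read from the probe set with that single gene symbol and the highest mean over the 6 arrays of a tissue. These 9 are among 17097 genes measured in the same way.

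The study asked how the loss of Abcb11, the canalicular bile salt export pump, in a mother affects the lungs of the offspring. All mice were C57BL/6. The 6 lung arrays held Abcb11+/- offspring, from a WT mother crossed with an Abcb11-/- father or from an Abcb11-/- mother crossed with a WT father, with 1 array for each mother at E17.5, at E18.5 and on the day of birth (PN0). The 6 liver arrays held adult females aged 1.5 months, 3 WT and 3 Abcb11-/-. The pups of both crosses therefore had the same genotype at Abcb11, and mother and father changed together. The number of pups behind each lung array is not stated in the labels, and 1 array per stage and mother gives no replicate check at a single stage. Values are log2 signals, on which a difference of 1 is a 2-fold change.

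Pulmonary surfactant is mostly phosphatidylcholine, made and stored in lamellar bodies by type II pneumocytes and spread at the air surface. Phospholipases A2 take part in remodelling that phosphatidylcholine, and in an injured lung secreted forms can degrade it. Secreted enzymes act outside the cell and need calcium. Group IVA releases arachidonic acid inside the cell, group VI works without calcium, group VII hydrolyses platelet-activating factor and oxidised phospholipids, and group XV acts at the acid pH of lysosomes.

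The whole tissues carried the genes that define them, and some arrays also carried genes of other tissues. The mean log2 signal of 6 type II pneumocyte genes was 10.7 to 11.58 on the lung arrays and 3.92 to 4.22 on the liver arrays. The mean of 11 hepatocyte genes was 9.85 on the Abcb11-/- mother's E17.5 array, between 4.26 and 5.66 on the other lung arrays, and 11.87 to 12.23 in the liver. On that same E17.5 array the mean of 9 skeletal muscle genes was 8.12, against 3.82 to 4.69 on the other lung arrays. Lung differences are therefore also given without that array for Pla2g1b and where a direction turned. Leaving it out keeps 1 E17.5 array, so these are effect sizes with no call. In whole tissue, fewer cells of a type and less RNA per cell cannot be told apart.

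Reference promoters are shown for Pla2g6 and Pla2g12a, which were called in opposite directions in the liver, and for Pla2g1b. The promoter of Sftpa1 is also shown, whose lung profile was the nearest to that of Pla2g1b after Il18. Each is a RefSeq window of 300 bases on GRCm38.p6, from 250 before a transcript start to 50 after it, written 5′ to 3′ on the strand of the gene. The windows are chr15:79328322-79328621 on the minus strand for Pla2g6, chr3:129880934-129881233 on the plus strand for Pla2g12a, chr5:115465892-115466191 on the plus strand for Pla2g1b and chr14:41131538-41131837 on the plus strand for Sftpa1. The Pla2g12a window lies inside the RefSeq span of its gene, which begins at 129878606. Capitals mark letters matching, on either strand, the letters TATAAA of the TATA box, CCAAT of the CCAAT box, GGGCGG of the GC box, AGGTCA of the nuclear receptor core, CTCAAG of the NKX2-1 core or TGTTTNC of the FOXA core.
Pla2g6: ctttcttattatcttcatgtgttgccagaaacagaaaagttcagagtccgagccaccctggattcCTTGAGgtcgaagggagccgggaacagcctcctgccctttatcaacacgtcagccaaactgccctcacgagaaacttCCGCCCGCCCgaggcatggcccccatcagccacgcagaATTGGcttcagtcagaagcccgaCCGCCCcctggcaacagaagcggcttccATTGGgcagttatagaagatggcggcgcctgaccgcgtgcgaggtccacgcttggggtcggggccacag
Pla2g12a: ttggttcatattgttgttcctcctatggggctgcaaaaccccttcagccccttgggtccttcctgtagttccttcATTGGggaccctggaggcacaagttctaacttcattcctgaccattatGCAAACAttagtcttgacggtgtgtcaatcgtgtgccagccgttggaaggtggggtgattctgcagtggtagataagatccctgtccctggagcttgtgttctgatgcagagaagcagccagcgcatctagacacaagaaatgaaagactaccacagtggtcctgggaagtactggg
Pla2g1b: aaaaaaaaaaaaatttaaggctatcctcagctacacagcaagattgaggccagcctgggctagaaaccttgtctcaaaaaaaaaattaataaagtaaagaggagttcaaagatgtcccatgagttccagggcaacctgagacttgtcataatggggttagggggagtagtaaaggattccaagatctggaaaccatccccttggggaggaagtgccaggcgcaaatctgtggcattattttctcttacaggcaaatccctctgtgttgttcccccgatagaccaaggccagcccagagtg
Sftpa1: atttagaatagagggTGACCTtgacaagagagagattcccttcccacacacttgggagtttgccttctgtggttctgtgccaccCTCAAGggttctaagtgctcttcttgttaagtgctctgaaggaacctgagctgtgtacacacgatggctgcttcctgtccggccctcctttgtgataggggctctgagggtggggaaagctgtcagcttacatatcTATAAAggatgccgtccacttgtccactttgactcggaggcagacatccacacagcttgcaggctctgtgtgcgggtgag

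The Pla2g6 window held 19 CpG dinucleotides, against a median of 7 and quartiles of 3 and 20 over 32851 RefSeq promoters of the same length. It matched the GC box 3 times, 2 of these sharing letters, the CCAAT box 2 times and the NKX2-1 core once. The Pla2g12a window held 4 CpG, 1 CCAAT match and 1 FOXA match. It describes a start inside the gene, and the region before the gene's beginning is not shown. The Pla2g1b window held 2 CpG and matched none of the 6 motifs, while that of Sftpa1 held 5 CpG and matched the TATA box, the nuclear receptor core and the NKX2-1 core once each. Over all 32851 windows, 13.6% matched the TATA box, 37.4% the CCAAT box, 35.7% the GC box, 16.3% the nuclear receptor core, 15.9% the NKX2-1 core and 20.5% the FOXA core. Such matches describe letters and do not show binding.

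In the offspring lung, 6 of the 9 genes had a signal above 4 on every array. The secreted enzymes Pla2g5 and Pla2g10 and the inactive Pla2g12b did not. Pla2g5 lay between 2.99 and 3.38 over the 6 lung arrays, Pla2g10 between 3.03 and 3.65 and Pla2g12b between 3.07 and 3.45. These values sat at or below the array medians, which were 3.63 to 3.68 in the lung. The deposited values carry no detection call, so expression of these 3 genes in the lung could not be told from background.

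Pla2g1b, the secreted enzyme best known from pancreatic juice, had the widest range of the 9 in the lung. With a WT mother its signal was 6.08 at E17.5, 7.52 at E18.5 and 7.76 at PN0. With an Abcb11-/- mother it was 7.15, 7.7 and 8.0 at the same stages. In both crosses the E17.5 array was the lowest and the PN0 array the highest, and at each stage the array of the Abcb11-/- mother was the higher of the pair. The mean of 7 pancreatic acinar genes stayed between 3.84 and 4.08 on the lung arrays.

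Over both mothers Pla2g1b was 1.0 higher at E18.5 than at E17.5 (SE 0.24, 95% confidence interval 0.41 to 1.59), with a limma adjusted p of 0.19. None of the 9 genes was called between these stages, against 0.0585% of all genes (10 of 17097). Without the Abcb11-/- mother's E17.5 array, the Pla2g1b difference was 1.43. It then rested on 1 E17.5 array, the one with the lowest Pla2g1b value. The stage difference also depended on the probe set. On another bright probe set of the gene, described below, it was 0.51 (limma adjusted p = 0.26). With averaged probe sets it was 0.54 (limma adjusted p = 0.2). Between E18.5 and PN0 the Pla2g1b difference was 0.26 (95% confidence interval -0.33 to 0.86).

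The largest difference by mother among the 9 genes was that of Pla2g1b at E17.5, 1.06 higher with the Abcb11-/- mother or 2.09-fold. At E18.5 it was 0.18 higher and at PN0 0.24 higher. On that E17.5 array the 6 type II pneumocyte genes differed unevenly from the WT mother's array, with Sftpd at 1.42, Sftpa1 (surfactant protein A) at 1.02, Slc34a2 at 0.49, Abca3 at 0.28, Sftpc at 0.02 and Etv5 at -0.2. The 4 club cell genes also ran both ways, with Scgb1a1 at 1.95, Cyp2f2 at 0.37, Scgb3a2 at 0.26 and Scgb3a1 at -1.21. The part of these cells and of the raised hepatocyte and skeletal muscle genes in the Pla2g1b difference was not tested. The difference also depended on the probe set. A second bright probe set for Pla2g1b (1416626_PM_at) read 6.03, 6.59 and 6.68 for the WT mother and 6.16, 6.63 and 7.0 for the Abcb11-/- mother, so it differed by 0.13 at E17.5, 0.04 at E18.5 and 0.32 at PN0. The remaining 2 probe sets of the gene lay at 3.04 or lower. With all 4 averaged, the E17.5 difference was 0.28. The probe set kept by the rule (1437015_PM_x_at) carries the x suffix that Affymetrix gives to sets with probes that may also match other transcripts.

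The 3 genes whose lung profiles were nearest to that of Pla2g1b, after each was centred on its own mean over the 6 arrays, were Il18, Sftpa1 and Il33. Their root mean square differences from it were 0.11, 0.118 and 0.142 on the log2 scale. Sftpa1 read 10.76, 11.99 and 12.16 for the WT mother and 11.78, 12.2 and 12.35 for the Abcb11-/- mother. Il18, a cytokine of the interleukin-1 family, read 5.62, 6.85 and 7.43, and 6.53, 7.21 and 7.49. Il33, an alarmin of the same family, read 6.4, 7.77 and 8.12, and 7.31, 8.3 and 8.19. All 4 genes had their lowest value on the E17.5 array of the WT mother. The likeness describes 6 arrays with 1 probe set per gene, and the second Pla2g1b probe set had a smaller E17.5 difference.

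**Figure D1:**
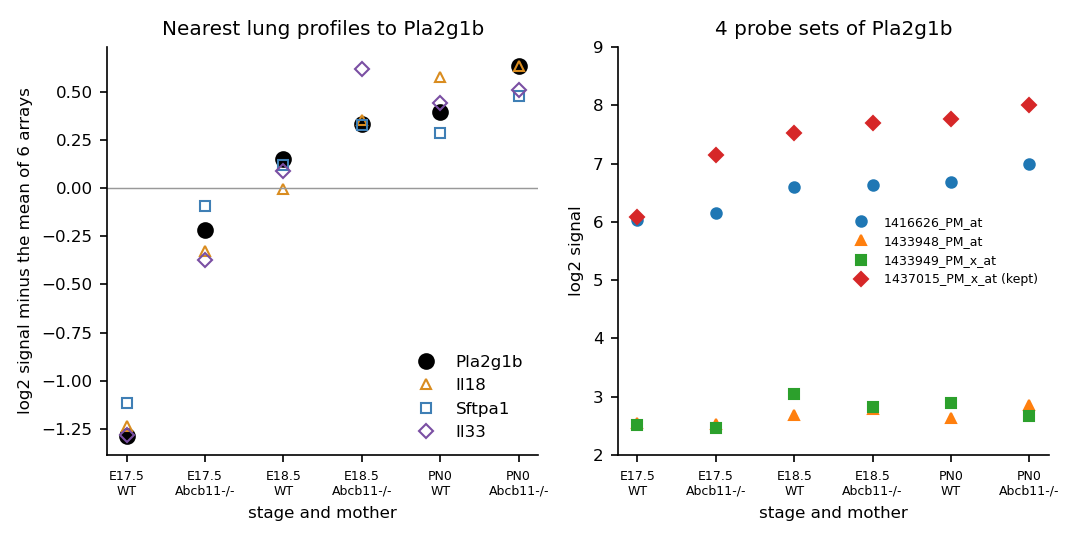
Left, log2 signal of Pla2g1b, Il18, Sftpa1 and Il33 on the 6 lung arrays (x axis: stage and mother), each minus its own mean over the arrays. Right, log2 signal of the 4 Pla2g1b probe sets on the same arrays; at E17.5 the kept probe set is 1.06 higher with an Abcb11-/- mother and the second bright one 0.13 higher, and the other 2 stay at 3.04 or below.

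Pla2g12a, a secreted enzyme of group XII with low activity in test tube assays, was above 6 on every lung array. Its signal with a WT mother was 6.97 at E17.5, 7.21 at E18.5 and 6.28 at PN0. With an Abcb11-/- mother the values were 6.81, 6.92 and 6.94. The PN0 array of the WT mother was the lowest of the 6, and the others lay within 6.81 to 7.21. The difference by mother was -0.15 at E17.5, -0.3 at E18.5 and 0.66 (1.57-fold) at PN0. Between E18.5 and PN0, over both mothers, it was -0.45 (95% confidence interval -1.06 to 0.16, limma adjusted p = 0.53).

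Pla2g4a, the cytosolic enzyme that supplies arachidonic acid for prostaglandins and leukotrienes, kept a narrow range in the lung. With a WT mother it read 7.42, 7.38 and 7.27 at E17.5, E18.5 and PN0. With an Abcb11-/- mother it read 7.55, 7.69 and 7.76. The differences by mother were 0.13, 0.32 and 0.49, with the 3 arrays of a mother being different stages and not replicates. Over the 3 stages the difference was 0.31 (SE 0.12, 95% confidence interval 0.01 to 0.61), with a limma adjusted p of 0.93. For Pla2g1b the same estimate was 0.5 (SE 0.2, 95% confidence interval 0.01 to 0.98, limma adjusted p = 0.93), and 0.21 without the Abcb11-/- mother's E17.5 array.

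Pla2g6, the calcium-independent enzyme that works in membrane remodelling, read 5.81, 5.99 and 5.53 for the WT mother and 5.72, 5.68 and 5.58 for the Abcb11-/- mother. The 2 sets of values overlapped, and the differences by mother were -0.09, -0.31 and 0.05. Pla2g15, the lysosomal enzyme that degrades phospholipids taken up by alveolar macrophages, read 5.1, 5.15 and 4.55 for the WT mother and 4.92, 5.23 and 5.08 for the Abcb11-/- mother. As for Pla2g12a, the PN0 array of the WT mother held the lowest Pla2g15 value, and the PN0 difference was 0.53. On the PN0 array of the WT mother the mean of 9 neutrophil genes was 6.71, against 6.13 with an Abcb11-/- mother, and that of 8 heart muscle genes was 6.07, against 6.86. The part of these other cells in the PN0 differences was not tested.

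Pla2g7, the platelet-activating factor acetylhydrolase that macrophages secrete, read 4.52, 4.37 and 5.24 with a WT mother. With an Abcb11-/- mother it read 4.22, 4.84 and 4.9. Both PN0 values were above all values at the earlier stages, and the sign of the difference by mother changed between stages, at -0.3, 0.47 and -0.34. From E18.5 to PN0 the difference over both mothers was 0.47 (95% confidence interval -0.09 to 1.03, limma adjusted p = 0.48). The mean of 12 macrophage genes lay between 5.27 and 6.09 on the lung arrays. The nearest lung profiles were those of Irak2, a kinase of interleukin-1 receptor signalling (root mean square difference 0.087), Acot10, an acyl-CoA thioesterase (0.089), and Arntl, a core clock transcription factor (0.091).

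**Figure D2:**
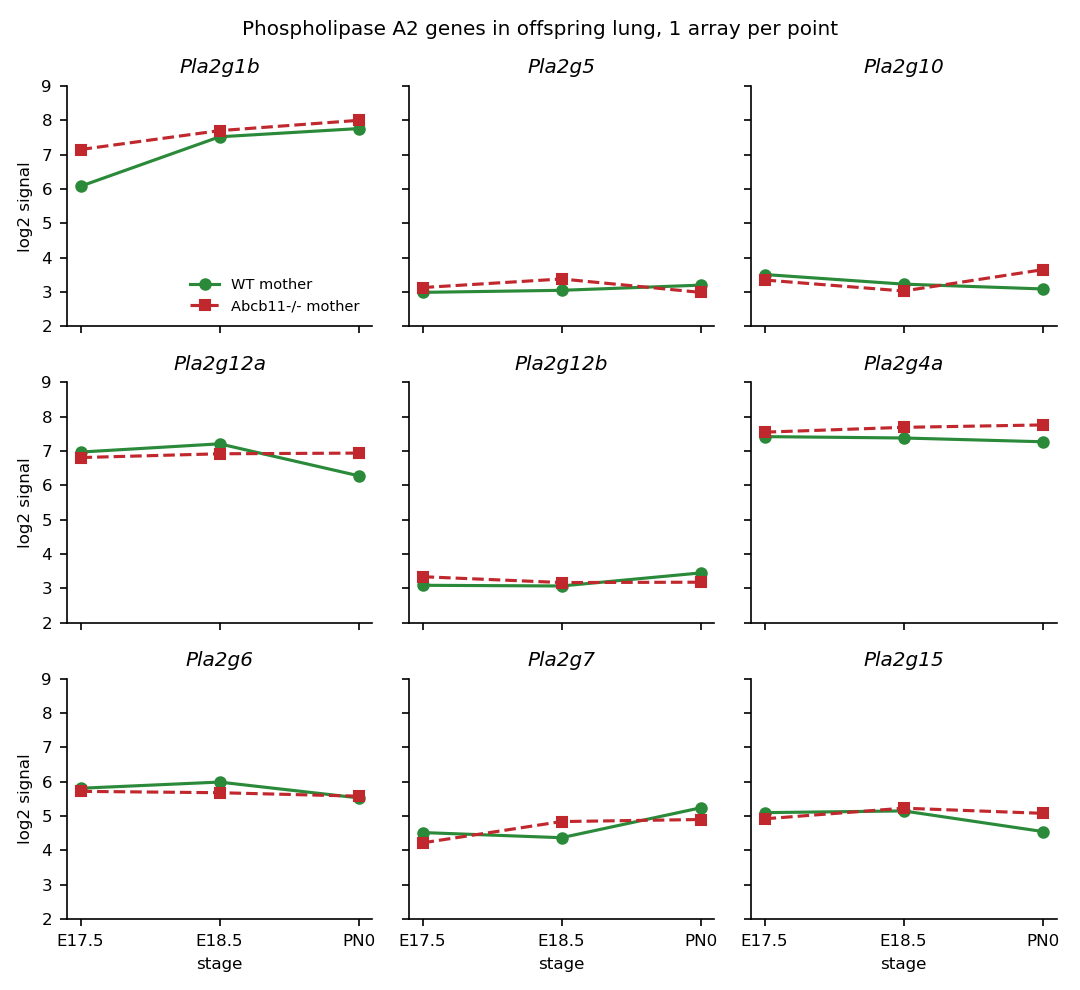
Log2 signal (y axis) of the 9 genes in offspring lung at 3 stages (x axis), each point being 1 array, for WT mothers (green circles, solid line) and Abcb11-/- mothers (red squares, dashed line). Pla2g1b runs from 6.08 to 8.0, and Pla2g5, Pla2g10 and Pla2g12b stay below 4.

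Counted by stage, 1 of the 9 genes was at least 1.5-fold apart by mother at E17.5 (Pla2g1b), against 7.02% of all genes. At E18.5 there was none, against 3.39% of all genes, and at PN0 there was 1 (Pla2g12a), against 7.04%. A count of 1 in 9 is no result about the family. Across the stages, 2 of the 9, Pla2g1b and Pla2g4a, were higher with the Abcb11-/- mother each time, against 13.2% of all genes, and none was lower each time. In the limma fit over stages none of the 9 was called by mother, where 0.0% of all genes were called and 867 of 17097 had an unadjusted p under 0.05. Likewise none was called between E18.5 and PN0, where 0.0% of all genes were called and 2098 had an unadjusted p under 0.05.

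**Figure D3:**
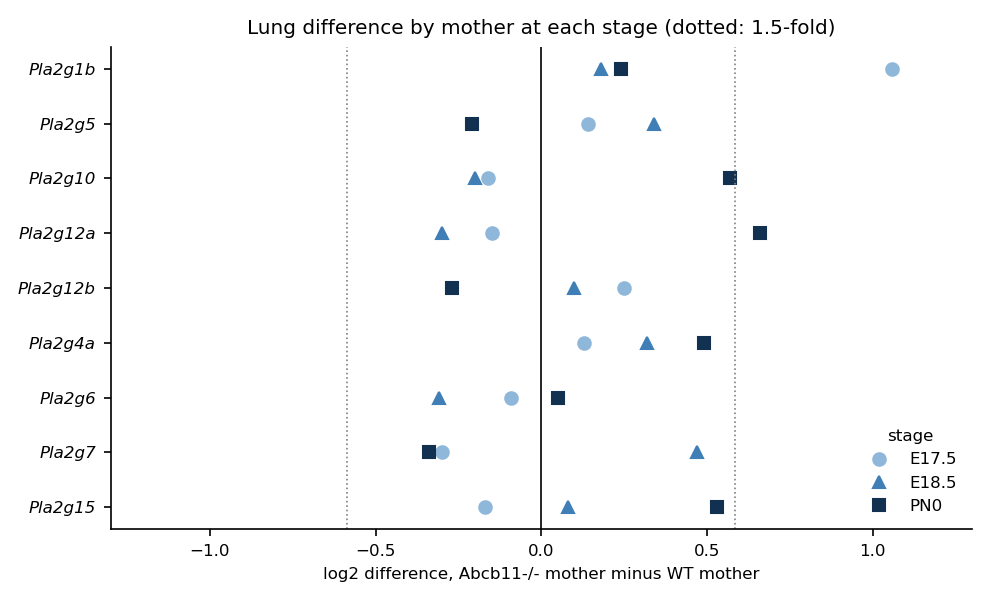
Log2 difference in lung signal, Abcb11-/- mother minus WT mother (x axis), for the 9 genes (y axis) at E17.5 (circles), E18.5 (triangles) and PN0 (squares), 1 array per mother at each stage. Only Pla2g1b at E17.5 (1.06) and Pla2g12a at PN0 (0.66) lie past the dotted 1.5-fold lines.

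In the adult liver, 2 of the 9 genes were called between Abcb11-/- and WT females, Pla2g6 higher and Pla2g12a lower. Pla2g6 read 7.23, 7.26 and 6.85 in the 3 WT livers and 8.43, 7.87 and 8.37 in the 3 Abcb11-/- livers. Every Abcb11-/- value was above every WT value. The means were 7.11 ± 0.23 (SD, n = 3) and 8.22 ± 0.31 (SD, n = 3), so that Pla2g6 rose 2.16-fold (log2 difference 1.11, SE 0.18, limma adjusted p = 0.012). The remaining 2 probe sets of the gene were dimmer and were not called. One lay between 3.91 and 4.44 with a log2 difference of 0.17, and the other between 2.76 and 2.87 with a difference of 0.0033.

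Pla2g12a moved the other way. It read 6.63, 6.66 and 6.09 in WT livers and 5.43, 5.06 and 5.52 in Abcb11-/- livers, with no overlap. The means were 6.46 ± 0.32 (SD, n = 3) and 5.34 ± 0.24 (SD, n = 3), and Pla2g12a fell by 1.12 on the log2 scale (SE 0.19, 2.18-fold, limma adjusted p = 0.013). Without WT replicate 1 the log2 difference was -1.04 with a limma adjusted p of 0.059, and without WT replicate 2 -1.02 with 0.064. The call was thus lost in these fits, which called 567 and 492 genes over all, against 1238 with all 6 livers. None of 11 hepatocyte genes was called between the genotypes, against 4.33% of all genes called higher and 2.91% lower. Except for Apob and Afp, they read 12.94 or more on every liver array, near the array maxima of 13.84 to 14.16. Apob differed by -0.96 (limma adjusted p = 0.092) and Afp by 1.74 (limma adjusted p = 0.19). The part of hepatocyte content in the Pla2g12a difference was not tested.

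Its relative Pla2g12b, an inactive group XIII protein of hepatocytes and gut that takes part in lipoprotein secretion, was bright on the liver arrays. It lay between 9.86 and 10.1 in WT and between 9.95 and 10.29 in Abcb11-/- livers, and the groups overlapped. The log2 difference was 0.22 (95% confidence interval -0.07 to 0.51, limma adjusted p = 0.37). In the lung the same gene did not pass 3.45, and it was at 3.34 on the E17.5 array with raised hepatocyte genes. The arrays of the 2 tissues had different medians, 3.63 to 3.68 and 3.15 to 3.18, so these levels are set side by side without a test.

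Pla2g7 read 3.52, 3.33 and 3.52 in WT and 3.65, 4.3 and 3.97 in Abcb11-/- livers. The WT values lay just above the liver array medians of 3.15 to 3.18 and may lie at the background. The groups did not overlap, but the difference of 0.52 (SE 0.16, 95% confidence interval 0.14 to 0.9) had a limma adjusted p of 0.11. Pla2g4a read 4.7, 4.72 and 4.82 in WT and 4.75, 5.3 and 5.26 in Abcb11-/- livers, a difference of 0.36 (SE 0.15, limma adjusted p = 0.23). For both genes Abcb11-/- replicate 1 was the lowest of its group. Without it the limma adjusted p was 0.024 for Pla2g7 and 0.019 for Pla2g4a, both past the threshold. Leaving out the lowest value of the higher group raises the difference by itself, so no conclusion is drawn from these 2 calls. Each gene was called in only 1 of the 6 fits that left out 1 liver. The fit without Abcb11-/- replicate 1 called 1323 genes over all, against 1238 with all 6 livers. The mean of 12 macrophage genes was 7.34 in Abcb11-/- replicate 1 and 8.51 and 7.99 in the others of its genotype, against 8.05, 7.43 and 7.57 in WT livers. None of the 12 was called, and their part in the Pla2g7 and Pla2g4a values was not tested.

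The WT mean of Pla2g15 was 5.79 ± 0.13 (SD, n = 3) and the Abcb11-/- mean 5.91 ± 0.22 (SD, n = 3), a difference of 0.12 (95% confidence interval -0.18 to 0.43). The 3 remaining secreted enzymes were below the liver array medians on every array, Pla2g1b between 2.78 and 2.98, Pla2g5 between 2.5 and 2.74 and Pla2g10 between 2.61 and 2.91. Pla2g1b, with its 7.15 to 8.0 in 5 of 6 lung arrays, was thus below the array medians in the liver, also on the probe set read in the lung, which lay between 2.45 and 2.85.

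**Figure D4:**
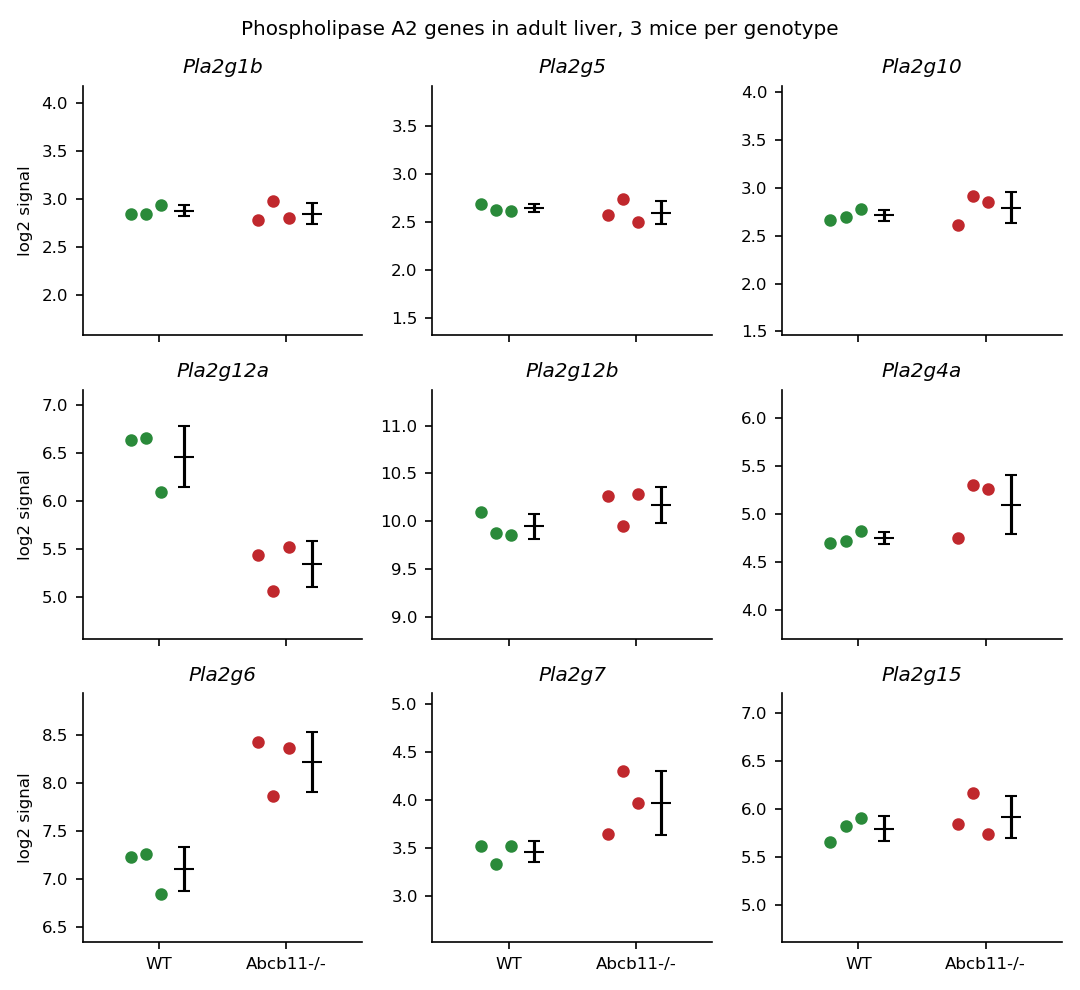
Log2 signal (y axis) of the 9 genes in adult female liver, WT (green) and Abcb11-/- (red), with 1 point per mouse and the mean ± SD (n = 3) beside them; every panel spans the same log2 range. The genotypes do not overlap for Pla2g6, Pla2g12a and Pla2g7.

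Of the 9 genes, 1 was called higher in the Abcb11-/- liver and 1 lower, against 4.33% and 2.91% of all genes. The genotypes did not overlap for 3 of 9 genes, against 26.0% of all genes, a share near that background. The median log2 difference of the 9 was 0.12, and that of all genes was 0.003.

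Of 17 other measured genes of phospholipases A2 and related lipases, 1 was called lower in the liver and 0 higher, against 2.91% and 4.33% of all genes. Their median log2 difference was -0.04, against 0.003 for all genes. Most of these genes were dim in both tissues. Pla2g2c, Pla2g2d, Pla2g2e, Pla2g2f, Pla2g3, Pla2g4d, Pla2g4e, Pla2g4f, Plaat1, Pnpla2 and Pnpla3 did not pass 3.46 in any liver. In the lung they did not pass 3.52. Such signals are near or under the liver medians (3.15 to 3.18) and under the lung ones, and may lie at the background. The counts and the median therefore say little about expressed enzymes. Plaat3, an adipocyte phospholipase, fell from 6.82, 6.84 and 7.06 to 5.8, 6.3 and 6.13 (log2 difference -0.83, limma adjusted p = 0.015). Its call was lost when any of the 3 WT livers was left out, with a limma adjusted p of up to 0.066. These fits called 492 to 567 genes over all, against 1238 with all 6 livers. In the lung no member of this list was called by stage or mother. At E17.5 none was at least 1.5-fold apart by mother. At E18.5 there were 2 of 17, against 3.39% of all genes. They were Plaat1, a related acyltransferase and phospholipase, at 0.6 and Pnpla7, a lysophospholipase of the endoplasmic reticulum, at -0.67. Plaat1 read 2.61 to 3.21 over the lung arrays, below their medians of 3.63 to 3.68, so it could not be told from background. At PN0 there was 1 of 17, Pnpla7, against 7.04% of all genes, a share near that background. Pnpla7 read 4.14, 4.75 and 5.84 for the WT mother and 4.14, 4.08 and 4.78 for the Abcb11-/- mother, a difference of -1.06 at PN0.

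A list of 6 modulators included the phospholipase A2 receptor Pla2r1 and the annexins first described as inhibitors of the enzyme. Of these Anxa2 alone was called in the liver, where 4.33% of all genes were called higher and 2.91% lower. The median of the 6 was 0.03. Anxa2 read 6.88, 6.66 and 6.87 in WT and 7.76, 7.94 and 8.07 in Abcb11-/- livers, a rise of 1.12 (SE 0.11, limma adjusted p = 0.0021). It kept its call in all 6 fits that left out 1 liver. In the PN0 lung Anxa1 was 11.06 for the WT mother and 10.44 for the Abcb11-/- mother, a difference of -0.62. Scgb1a1, an inhibitor of phospholipase A2 in the airway, was named after its values were seen. It read 9.05, 12.01 and 12.7 for the WT mother and 11, 11.85 and 12.52 for the Abcb11-/- mother, so its difference of 1.95 was seen at E17.5, on the array with raised hepatocyte genes.

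Of 17 genes that make or remodel phosphatidylcholine and lysophospholipids, 2 were called higher and 1 lower in the Abcb11-/- liver, against 4.33% and 2.91% of all genes, with a median of 0.06. Such small counts are no result about the list. Chka, the choline kinase at the head of the CDP-choline pathway, read 5.9, 5.85 and 5.61 in WT and 7.11, 7.41 and 9.34 in Abcb11-/- livers (log2 difference 2.17, SE 0.52, limma adjusted p = 0.049). Lpcat4, a lysophospholipid acyltransferase, read 3.36, 3.6 and 2.99 in WT and 4.96, 4.13 and 4.11 in Abcb11-/- livers (1.08, limma adjusted p = 0.045). Its WT values lay around the liver array medians of 3.15 to 3.18 and may lie at the background. Gpcpd1, which cleaves glycerophosphocholine, read 10.26, 10.18 and 10.8 in WT and 9.41, 9.6 and 9.54 in Abcb11-/- livers (-0.9, limma adjusted p = 0.02). When each of the 6 livers was left out in turn, Chka stayed called in 3 fits (not when any of the WT livers was left out). Lpcat4 stayed called in 2 (only without Abcb11-/- replicate 1 or 2). Gpcpd1 stayed called in 4 (not without WT replicate 1 or Abcb11-/- replicate 3). Over all genes, the fits without a WT liver called 492 to 567, against 1238 with all 6 livers. With all 6 livers, the Chka call was also lost with averaged probe sets (limma adjusted p = 0.054), quantile normalization (0.056), the trended and robust prior (0.14) and the replicate block (0.087). The Lpcat4 call was lost with quantile normalization (0.061), median centring (0.053) and the replicate block (0.062). With the test of the study's methods after adjustment, none of Plaat3 (0.12), Anxa2 (0.06), Chka (0.24), Lpcat4 (0.23) and Gpcpd1 (0.15) was called. In the lung none of the 17 was called. Lpcat1, the acyltransferase of surfactant phosphatidylcholine, differed by 0.6 at E17.5, where 7.02% of all genes were at least 1.5-fold apart by mother. That was on the array with raised hepatocyte genes, and Lpcat1 differed by -0.02 at E18.5 and 0.03 at PN0. At PN0 Mboat1, another lysophospholipid acyltransferase, was 6.74 for the WT mother and 6.06 for the Abcb11-/- mother, a difference of -0.69.

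Genes of other cells also moved in the liver. Of 9 neutrophil genes 4 were called higher in Abcb11-/- livers, against 4.33% of all genes: S100a8 (2.84), S100a9 (2.62), Ngp (1.64) and Mmp8 (0.43). Mmp8 read 2.32 to 2.9, below the liver array medians of 3.15 to 3.18. Camp (0.46), Mpo (0.42), Ltf (0.41), Elane (0.15) and Cxcr2 (-0.02) were not called. The mean of the 9 was 3.91 to 4.65 in Abcb11-/- livers against 3.18 to 3.5 in WT. Of 5 bile duct genes 2 were called higher, Sox9 (1.15) and Epcam (0.67), against 4.33% of all genes. The mean of the 5 was 3.81 to 4.37 in Abcb11-/- livers against 3.22 to 3.43 in WT. How far these cells carried the Pla2g6, Anxa2 or Chka differences was not tested.

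**Figure D5:**
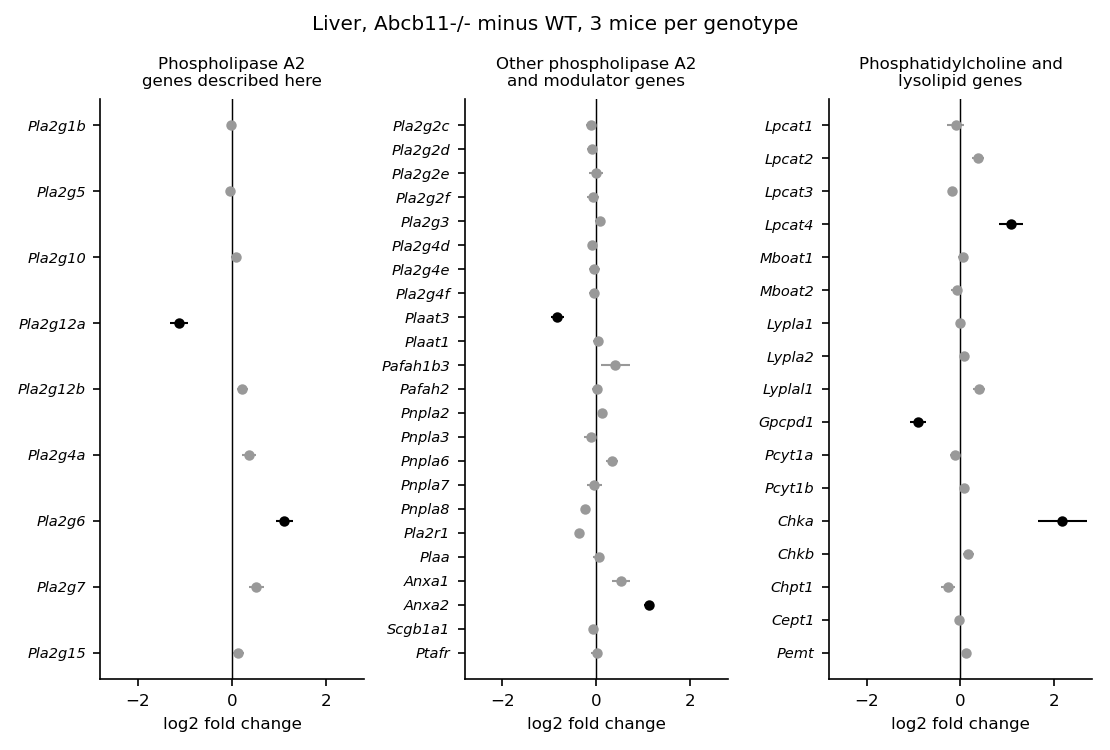
Log2 fold change in liver, Abcb11-/- minus WT (x axis), with the standard error of the limma fit as bars (3 mice per genotype), for the 9 genes described here, for other phospholipase A2 genes and modulators, and for genes of phosphatidylcholine and lysophospholipid metabolism. Black points passed an adjusted p of 0.05: Pla2g6, Anxa2, Lpcat4 and Chka to the right, Pla2g12a, Plaat3 and Gpcpd1 to the left.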

How the data were processed

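RNA from lung and liver was hybridised to Affymetrix HT MG430 PM plate arrays. The authors deposited log2 signals made by RMA, a robust averaging over the probes of a set with quantile normalization. Partek 6.5 is named in the submitters' processing notes. There is no detection call, and precision is limited by the number of arrays. Of 45037 probe sets, 28898 had 1 gene symbol in the table used, 551 several and 15588 none, and 28689 were matched to current RefSeq annotation. In each tissue 1 probe set, the brightest over the 6 arrays, was kept per gene. This left 17097 genes, and 7180 of them had more than 1.

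Groups came from the sample labels. Liver genotypes (3 arrays each) and, in the lung, stage and mother as additive terms (2 residual degrees of freedom) were tested in R 4.3.3 by the two-sided moderated test of limma 3.58.1 (lmFit, eBayes), with Benjamini-Hochberg adjustment over all 17097 genes and a threshold of 0.05. The lung fit takes the spread from what stage and mother leave, so it assumes that the mothers differ alike at every stage. The labels name a mouse for each liver array, and p-values measure the spread between these samples. Single lung stages were described by differences, with 1.5-fold as the size counted. Calculations were tested on simulated data.

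The genes and lists were chosen with earlier results of these data known. All 10 genes looked for are named, and from the other lists those called in a test or at least 1.5-fold apart by mother at PN0, up to 6 per list. Some further genes are named outside this rule, such as Lpcat1 and Plaat1 for a difference at an earlier stage. Where the values of a gene spanned at least 1.0 over the lung arrays, the 3 nearest mean-centred profiles were named. Alternatives were averaged probe sets, a mean log2 value of at least 6, quantile normalization, centring on array medians, eBayes with trend and robust fitting, a replicate block, the two-tailed test of the study's methods, a 2-fold size, and leaving out arrays or stages. A fit of every probe set was added after the data were seen.

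Marker lists not described with the results gave the counts below in the liver, where 4.33% of all genes were called higher and 2.91% lower. Of 6 type II pneumocyte genes 1 was called higher (Sftpd, 0.64). Of 6 type I genes 1 was called higher (Emp2, 0.68) and 1 lower (Hopx, -1.05). None of 4 club cell, 8 heart muscle, 9 skeletal muscle, 7 pancreatic acinar or 7 endothelial genes was called. Marker genes at least 1.5-fold apart by mother at PN0 were, with their log2 differences, the hepatocyte genes Alb (1.28), Afp (0.8) and Ttr (1.01), the club cell genes Cyp2f2 (-0.75) and Scgb3a1 (0.98), the macrophage gene Adgre1 (0.66), the neutrophil genes S100a8 (-0.69), S100a9 (-0.66), Ngp (-0.73), Camp (-1.04) and Mmp8 (-1.49), and the heart muscle genes Tnni3 (1.24), Myl7 (0.84), Myl4 (0.88), Ryr2 (1.04) and Mybpc3 (1.31). The others were the skeletal muscle genes Acta1 (-0.63), Ckm (0.94), Myh3 (-0.93) and Mylpf (-0.59), the bile duct genes Sox9 (0.82) and Cldn7 (-0.62), the pancreatic acinar genes Cpb1 (0.61) and Cela1 (1.04), and the endothelial gene Tek (-0.67). No type I or type II pneumocyte gene was that far apart.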

Additional observations from a re-analysis of the deposited data

Results flagged for a closer look

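Pla2g12a differed by mother in opposite directions between stages in the lung. The Abcb11-/- mother's array was lower at E17.5 (-0.15) and E18.5 (-0.3) and higher at PN0 (0.66). With 1 array per mother at each stage, the change of direction was not tested.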

How the results depend on the processing

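Of the 9 genes, 2 were called in the liver. That number was 1 (Pla2g6) with the brightness minimum (a mean log2 value over 6 or equal to it), which left 2 of the genes in the test, 1 with the replicate block, and 0 with the test of the study's methods after adjustment, which called 49 genes in all and the 2 genes only before adjustment. It ran from 1 to 4 when 1 liver was left out. The labels do not say whether the replicate numbers pair the livers. Same-numbered deviations had correlations of -0.045, -0.041 and -0.135, which cannot settle it with 3 livers per genotype. With the block the limma adjusted p was 0.044 for Pla2g6 and 0.053 for Pla2g12a. Pla2g6 kept its call in all 6 fits without 1 liver, and its log2 difference was 0.43 with averaged probe sets. Median centring put the median liver difference of all genes at -0.157, against 0.0033 as deposited, and turned 740 higher and 498 lower genes into 548 and 1659, and the 2 calls kept their directions. Quantile normalization gave 633 and 665. Over all genes the replicate block gave 429 and 242.

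In the lung the number called between E17.5 and E18.5 was 0 in each fit that kept both E17.5 arrays. The number 1.5-fold apart by mother at E17.5 was 0 with averaged probe sets, and at PN0 it was 0 at a 2-fold size. Over all genes, E18.5 against E17.5 gave 10 calls, 0 with quantile normalization or median centring, 45 with the minimum of 6 and 197 with the robust prior. PN0 against E18.5 gave 0, up to 87 with the robust prior. By mother there were 0, and 1 with the brightness minimum or the robust prior.

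Signs turned only for differences that were not called, and the cause was not tested. In the liver these were Pla2g15 with averaged probe sets (-0.03) and median centring (-0.0367), Pla2g10 with median centring (-0.08), and, over the fits without 1 liver, Pla2g5 (-0.1117 to 0.0083) and Pla2g1b (-0.0867 to 0.0133). By mother over the stages they were Pla2g12b with median centring (-0.0073), without E17.5 or its Abcb11-/- array (-0.0826, the same fit) and without E18.5 (-0.0075), Pla2g7 without E17.5 or that array (0.0624) and without PN0 (0.0844), and Pla2g5 without E18.5 (-0.0328). Without PN0, Pla2g10 (-0.1777), Pla2g12a (-0.2232) and Pla2g15 (-0.046) also turned. Without the Abcb11-/- mother's E17.5 array, E18.5 against E17.5 turned for Pla2g12b (0.0725), Pla2g15 (-0.0554) and Pla2g4a (-0.0867). PN0 against E18.5 turned for Pla2g4a with quantile normalization (0.0062) and median centring (0.0663). In the fit of every probe set, dimmer ones turned for Pla2g6 (-0.3371 at E18.5, 0.0684 by mother, 0.038 and 0.0649 at PN0), Pla2g15 (-0.1833 in the liver, -0.0546 by mother) and Pla2g1b (-0.1665 by mother, -0.1454 at PN0). Genes near the array medians may lie at the background, which limits the smallest differences.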
